A study of Mus musculus with 12 samples.

Results

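A small group of spleen CD8+ T cells that were sorted as precursor exhausted cells lay in clusters made up almost wholly of cells sorted as effectors. They were chosen by 2 deposited labels: the cell came from a precursor exhausted (Tpex) library, and the authors' clustering put it in cluster 0, 2 or 6. The choice gave 684 of 100540 cells in the deposited cell table, out of 26080 Tpex-sorted cells, with 169 from mice given anti-CD137 and 515 from control mice. Droplet 5′ gene expression and T cell receptor libraries were made from 3 sorted CD8+ subsets in each of 2 treatments, so the 12 samples form 6 gene expression libraries with their 6 receptor libraries. All mice were wild-type C57BL/6. In the treated group, 5 mice received 10 µg of the anti-CD137 antibody clone 3H3, and in the control group 10 mice received 100 µg of the Ig clone HRPN, both with 2 injections a week for 14 days. Tpex cells were sorted as CD44hi PD1+ Slamf6+ Tim3-, exhausted (Tex) cells as CD44hi PD1+ Slamf6- Tim3+, and effector (Teff) cells as CD44hi PD1-. Cells were not tied to single mice in the labels, the dose differed between the antibodies, and each treatment and subset had 1 library, so a difference between treatments cannot be told apart from a difference between libraries.

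Precursor exhausted CD8+ T cells keep Slamf6 on their surface, renew themselves, and give rise to Tim3+ exhausted cells, whereas PD1- effector cells follow another course of differentiation. CD137, also called 4-1BB, is a costimulatory receptor of the tumor necrosis factor receptor family on activated T cells, and clone 3H3 is an agonist of it. A T cell and its daughters carry the same rearranged TRA and TRB chains, so a shared pair of CDR3 sequences marks cells of 1 clone. The CDR3 spans the junction where V and J segments were joined, in TRB with a D segment between them. The data analysed here hold values per cell and receptor chains but no value per gene, so the sorted type could not be checked against marker genes, and clusters are called by their numbers.

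The 3 clusters were effector clusters by the libraries that filled them. Of their 50336 cells, 98.6% came from Teff libraries, with 97.8% in cluster 0, 99.6% in cluster 2 and 95.7% in cluster 6. Cluster 1, in contrast, drew 93.1% of its cells from Tpex libraries and is used below as the main Tpex cluster, with 11088 anti-CD137 and 11253 control cells. Depth per cell, counted as unique molecular identifiers (UMIs), differed between libraries. The median was 1950 UMIs in the anti-CD137 Tpex library, against 4729 in the control Tpex library, and the lowest cell had 1472 UMIs after anti-CD137 and 2558 in controls. The other 4 libraries had medians of 3473 to 5619 UMIs.

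Cells of clusters 0, 2 and 6 made up a smaller share of the Tpex library after anti-CD137. They were 169 of 13209 Tpex cells after anti-CD137, or 1.28% (exact 95% binomial interval 1.09 to 1.49), against 515 of 12871 in controls, or 4.0% (3.67 to 4.35). The difference was -2.72 percentage points (Newcombe interval -3.12 to -2.33). These intervals cover counting error only, treat cells as independent although cells of a clone are not, and with 1 library a group there is no replicate check and no test. In each of the 3 clusters the anti-CD137 share was lower, by -2.10 points (-2.46 to -1.75) for cluster 0, -0.28 points (-0.43 to -0.15) for cluster 2 and -0.34 points (-0.47 to -0.21) for cluster 6. The same clusters held fewer Tex-sorted cells, 12 of 9897 after anti-CD137 (0.121%) and 31 of 10623 in controls (0.292%). A lower share was not particular to these clusters. Tpex-sorted cells in clusters 3 and 4, which were filled mainly by Tex libraries, were 0.628% of the library after anti-CD137 and 3.65% in controls. Cluster 5 went the other way, with 13.9% after anti-CD137 and 3.17% in controls.

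The lower share was also seen within bins of equal UMI count where both libraries held many cells. Up to 4000 UMIs these bins took the shallow part of the control library (median 4729) and the deeper part of the anti-CD137 library (median 1950). Cells of equal count thus held different places in their libraries. Among cells with 2500 to 3000 UMIs, 13 of 1365 anti-CD137 Tpex cells (0.952%, interval 0.508 to 1.62) lay in clusters 0, 2 and 6, against 73 of 998 control Tpex cells (7.31%, 5.78 to 9.11). Among cells with 3000 to 4000 UMIs the shares were 1.60% (0.948 to 2.51) after anti-CD137 and 4.63% (3.92 to 5.42) in controls. At 4000 to 5000 UMIs the anti-CD137 share rested on 4 of 440 cells. Above 5000 UMIs the anti-CD137 library held 4 such cells, and the intervals of the libraries overlapped in each bin. Within the control library the share was 7.31% at 2500 to 3000 UMIs and 1.64% (0.923 to 2.70) at 10000 UMIs and over.

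**Figure D1:**
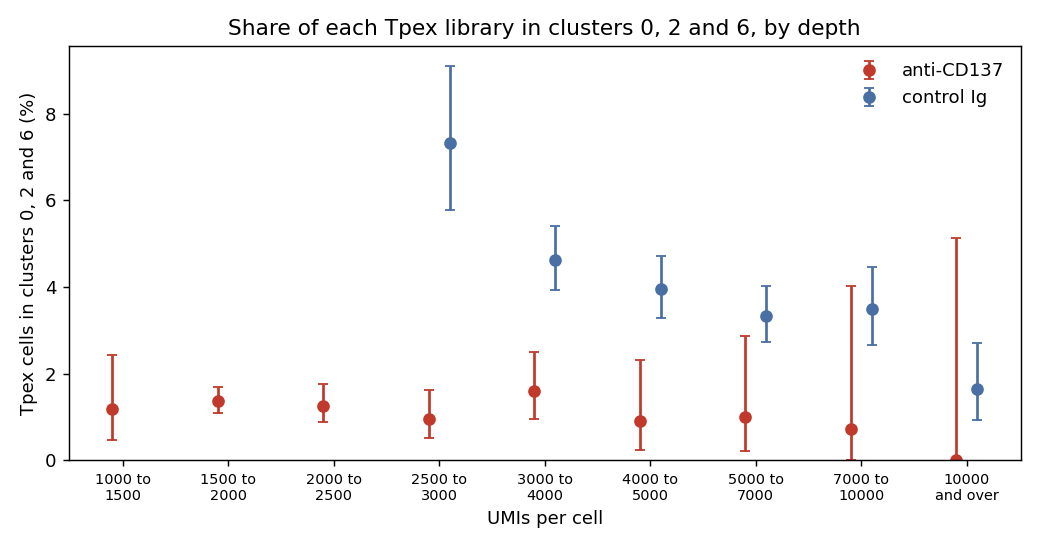
Share of the cells of each Tpex library that lay in clusters 0, 2 and 6 (vertical axis, percent) by UMIs per cell (horizontal axis, bins), for anti-CD137 (red, left) and control Ig (blue, right). Points are shares and bars exact 95% binomial intervals. From 2500 to 5000 UMIs every anti-CD137 interval lies below the control interval of the same bin, and the control library held no cell under 2500 UMIs.

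Cluster 0 took most of these cells in both libraries. It held 134 of the 169 anti-CD137 cells (79.3%, interval 72.4 to 85.1), with 22 in cluster 2 and 13 in cluster 6. It held 401 of the 515 control cells (77.9%, 74.0 to 81.4), with 58 in cluster 2 and 56 in cluster 6. Teff cells were spread otherwise over the same clusters. In the anti-CD137 Teff library 46.2% of them lay in cluster 0, 48.8% in cluster 2 and 5.02% in cluster 6. In the control Teff library 54.6% lay in cluster 0, 43.0% in cluster 2 and 2.40% in cluster 6. Cluster 2 was thus thinly filled by Tpex-sorted cells in both treatments.

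Ribosomal protein transcripts, which are abundant in lymphocytes, lay between the Tpex and the Teff levels. Their median share of a cell's UMIs was 30.5% (quartiles 27.1 and 34.2) in the 169 anti-CD137 cells and 30.4% (26.2 and 34.9) in the 515 control cells. Tpex cells of cluster 1 had medians of 24.0% after anti-CD137 and 25.1% in controls. Teff cells of clusters 0, 2 and 6 had medians of 38.4% after anti-CD137 and 37.4% in controls. Clusters may have been built on these same genes, so the values set beside cluster 1 are a description.

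The intermediate level came from clusters 0 and 2. Tpex-sorted cells of cluster 0 had medians of 31.6% after anti-CD137 and 31.3% in controls, while Teff cells of cluster 0 had 38.3% after anti-CD137 and 37.2% in controls. In cluster 2 the Tpex-sorted medians were 26.0% after anti-CD137 and 29.9% in controls, below the Teff medians of 39.2% after anti-CD137 and 38.1% in controls. Cluster 6 was low in ribosomal transcripts whatever the sort. There the Tpex-sorted medians were 20.8% after anti-CD137 and 22.9% in controls, and the Teff medians were 20.4% after anti-CD137 and 21.1% in controls.

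**Figure D2:**
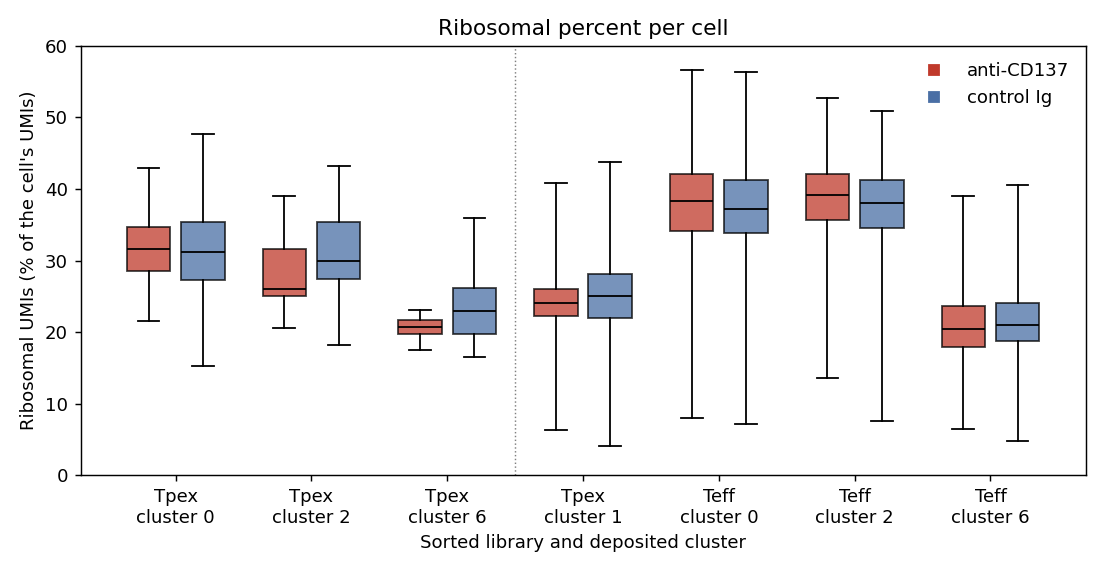
Ribosomal protein UMIs as a percent of each cell's UMIs (vertical axis) for Tpex-sorted cells of clusters 0, 2 and 6 (left of the dotted line), Tpex cells of cluster 1 and Teff cells of clusters 0, 2 and 6, with anti-CD137 (red) left of control Ig (blue). Boxes show quartiles and median over cells and whiskers the lowest and highest cell. Tpex-sorted cells of clusters 0 and 2 have medians of 26.0% to 31.6%, below the 37.2% to 39.2% of Teff cells of these clusters, and both sorts are near 21% to 23% in cluster 6.

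Part of the library depths could be matched. Over UMI bins with at least 20 cells of each kind, weighted by the Tpex-sorted cells, the mean of the bin medians was 30.2% for 123 anti-CD137 Tpex-sorted cells against 33.6% for Teff cells. In controls it was 29.9% for 500 Tpex-sorted cells against 38.0% for Teff cells. The matched gaps were -3.43 points after anti-CD137, over bins from 1500 to 2500 UMIs, and -8.15 points in controls, over bins from 2500 to 10000 UMIs, so they rest on different depths. Against cluster 1 the same weighting gave 30.2% against 23.9% after anti-CD137, and 29.9% against 24.9% in controls. Within the control cells the median was 28.4% at 2500 to 3000 UMIs and 36.1% at 10000 UMIs and over, while cluster 1 cells had 24.0% and 25.4% in these bins. Mitochondrial transcripts were few in all of these cells, with medians of 1.86% after anti-CD137 and 1.72% in controls. In cluster 6 the Tpex-sorted medians were 0.873% after anti-CD137 and 1.06% in controls.

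The deposited cell cycle columns placed most of these cells in G1. A call of S or G2M was given to 44 of 169 anti-CD137 cells (26.0%, interval 19.6 to 33.3) and 83 of 515 control cells (16.1%, 13.0 to 19.6). In cluster 1 the shares were 31.4% after anti-CD137 and 18.0% in controls, so the intervals of the differences, -5.34 points (-11.8 to 2.01) and -1.92 points (-5.08 to 1.61), both included 0. In Teff cells of clusters 0, 2 and 6 the shares were 40.4% after anti-CD137 and 50.5% in controls. The medians of the S score were -0.11 for the Tpex-sorted cells in both treatments and -0.02 after anti-CD137 and -0.01 in controls for the Teff cells.

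A call of S or G2M needs only a score above 0, and the order changed at a stricter cut. The higher of both scores exceeded 0.1 in 8.88% of the anti-CD137 cells (5.05 to 14.2) and 2.91% of the control cells (1.64 to 4.76). At that cut the share was 14.2% after anti-CD137 and 7.80% in controls in cluster 1, and 3.39% after anti-CD137 and 4.54% in controls in the Teff cells. Phase calls also vary with depth, and free RNA can enter the scores. Thinning to equal depth was not possible in the absence of gene counts. The part of either was not tested, and no cycling is read from these calls. Over the same UMI bins as above the S or G2M share was 21.1% in Tpex-sorted against 50.4% in Teff cells after anti-CD137, and 15.2% against 49.7% in controls. Cluster 1 cells over these bins had 31.3% after anti-CD137, a gap of -10.2 points for 123 Tpex-sorted cells. In controls they had 16.7%, a gap of -1.48 points. No interval was computed for these gaps. Within the group, cluster 6 cells had the highest share, with 8 of 13 after anti-CD137 (61.5%, 31.6 to 86.1) and 17 of 56 in controls (30.4%, 18.8 to 44.1).

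Receptors could be compared for 476 of the 684 cells, those with both a TRA and a TRB chain. They were 87 of 169 anti-CD137 cells (51.5%, interval 43.7 to 59.2) and 389 of 515 control cells (75.5%, 71.6 to 79.2). Cluster 1 had 33.4% paired cells after anti-CD137 and 78.3% in controls. A clonotype here is an identical pair of nucleotide CDR3s, taken from the TRA and the TRB with the most UMIs in the cell, and its size is counted over all paired cells of the Tpex library. The 87 anti-CD137 cells held 76 clonotypes and the 389 control cells 376.

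The sequences below are those of the clonotypes the results on clone size and sharing turn on, read 5′ to 3′ from the deposited receptor table. Capitals mark the bases that match the end of neither the germline V nor the germline J segment, by exact match to GENCODE transcripts of GRCm38 (mm10). D segments were not matched, so capitals in TRB can include germline D bases. TRB segments lie on chromosome 6 and TRA segments on chromosome 14.
Control receptor A, TRBV19 and TRBJ1-1: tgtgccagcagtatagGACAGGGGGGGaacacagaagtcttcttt
Control receptor A, TRAV8N-2 and TRAJ40: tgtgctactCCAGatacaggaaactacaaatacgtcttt
Control receptor B, TRBV12-1 and TRBJ1-3: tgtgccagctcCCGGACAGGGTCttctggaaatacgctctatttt
Control receptor B, TRAV8N-2 and TRAJ40: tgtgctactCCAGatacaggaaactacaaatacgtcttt
Control receptor C, TRBV2 and TRBJ2-1: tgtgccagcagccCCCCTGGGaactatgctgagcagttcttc
Control receptor C, TRAV6-7-DV9 and TRAJ43: tgtgctctgagGaacaatgccccacgattt
Control receptor D, TRBV19 and TRBJ1-2: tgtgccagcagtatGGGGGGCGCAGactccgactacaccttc
Control receptor D, TRAV13-1 and TRAJ23: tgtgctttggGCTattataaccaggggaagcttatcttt
Anti-CD137 receptor E, TRBV5 and TRBJ1-1: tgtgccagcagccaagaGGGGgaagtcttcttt
Anti-CD137 receptor E, TRAV12D-3 and TRAJ4: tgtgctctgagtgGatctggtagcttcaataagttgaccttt
Anti-CD137 receptor F, TRBV26 and TRBJ1-4: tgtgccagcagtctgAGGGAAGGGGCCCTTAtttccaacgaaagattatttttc
Anti-CD137 receptor F, TRAV16N and TRAJ40: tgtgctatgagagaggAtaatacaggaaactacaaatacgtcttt
Receptors A and B carry different TRB chains and 1 identical TRA nucleotide CDR3, with 4 bases outside both germline ends. Their shared TRAV8N-2 segment lies at chr14:53345890-53346424 and TRAJ40 at chr14:54177921-54177981, both on the plus strand. TRBV19 of receptors A and D lies at chr6:41178375-41179048, and TRBV12-1 of receptor B at chr6:41113550-41114067, both on the plus strand and annotated as variable segments of the TRB locus.

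Most control cells of the group were alone in their clonotype, unlike the control cells of cluster 1. Of the 389 paired control cells, 42 had at least 1 other cell with the same receptor in the Tpex library (10.8%, interval 7.89 to 14.3), against 5145 of 8810 cells in cluster 1 (58.4%, 57.4 to 59.4). The difference was -47.6 points (-50.7 to -43.9). After anti-CD137 the share was 35 of 87 (40.2%, 29.9 to 51.3), against 1126 of 3699 in cluster 1 (30.4%, 29.0 to 32.0), a difference of 9.79 points whose interval (-0.70 to 21.0) included 0. Counted by the TRB chain alone, the anti-CD137 difference was -9.53 points (-19.1 to -0.42), with 69 of 116 cells against 3438 of 4982. That count also takes in cells with a TRB and no TRA. By TRB alone over the same 87 and 3699 paired cells, the anti-CD137 difference was -3.99 points (-15.2 to 6.74). With 2-cell clonotypes inside either set counted as 1 cell it was 4.12 points (-4.54 to 14.99), and without the largest anti-CD137 clonotype 10.6 points (0.158 to 21.8). No direction is therefore read for anti-CD137. In controls TRB alone gave 12.2% against 62.5%, and the other settings gave differences of -48.8 to -42.2 points. Which receptors are compared also differed, because after anti-CD137 fewer cells of cluster 1 than of the group were paired.

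Clones of 3 or more Tpex cells were uncommon in both treatments. They held 8 of 87 anti-CD137 cells (9.20%, interval 4.05 to 17.3), against 15.6% of cluster 1. They held 27 of 389 control cells (6.94%, 4.62 to 9.94), against 47.8% of cluster 1. Of these 27 control cells, 23 lay in cluster 6, out of 43 paired cells there (53.5%, 37.7 to 68.8). The other 4 were among the 346 paired cells of clusters 0 and 2 (1.16%, 0.316 to 2.93). The largest clonotype with a cell in the group had 4 Tpex cells after anti-CD137 and 869 in controls. Clonotypes of 10 or more cells held 0 of 87 anti-CD137 cells, which allows a share of up to 3.45%, and 11 of 389 control cells (2.83%, 1.42 to 5.0). In cluster 1 they held 3.24% of cells after anti-CD137, which is within that limit, and 28.9% in controls. Of the 11 control cells of the group, 9 lay in cluster 6, out of 43 (20.9%, 10.0 to 36.0).

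Among control cells, clone size divided cluster 6 from clusters 0 and 2. Among the control Tpex-sorted cells of cluster 6, 26 of 43 paired cells belonged to clones of 2 or more (60.5%, interval 44.4 to 75.02), against 16 of 346 in clusters 0 and 2 (4.62%, 2.67 to 7.40). The difference was 55.8 points (39.5 to 70.5). Cluster 6 cells differed from cluster 1 by 2.07 points, with an interval of -14.0 to 16.7. All 26 expanded cluster 6 cells, in 18 clonotypes, had a sister cell in cluster 1, and 1019 of the 1145 other Tpex cells of those clonotypes lay there. Cluster 1 held 87.4% of all control Tpex cells, so that share is near the one of the whole library. Receptor C alone gave 769 of the 1019 cells. Of the 16 expanded cells in clusters 0 and 2, 7 had a sister in cluster 1 and 8 had sisters only in clusters 0, 2 and 6. After anti-CD137 only 9 cluster 6 cells were paired, of which 3 were expanded, so the same comparison (-7.69 points, -36.1 to 30.7) was not detectable at this number of cells. Teff-sorted cells of these clusters, with clone size counted in the Teff library, were divided likewise in both treatments. After anti-CD137, 460 of 860 Teff cells of cluster 6 were expanded (53.5%), against 1.02% in cluster 0 and 1.58% in cluster 2, and in controls 121 of 361 (33.5%), against 3.68% in cluster 0 and 1.98% in cluster 2.

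**Figure D3:**
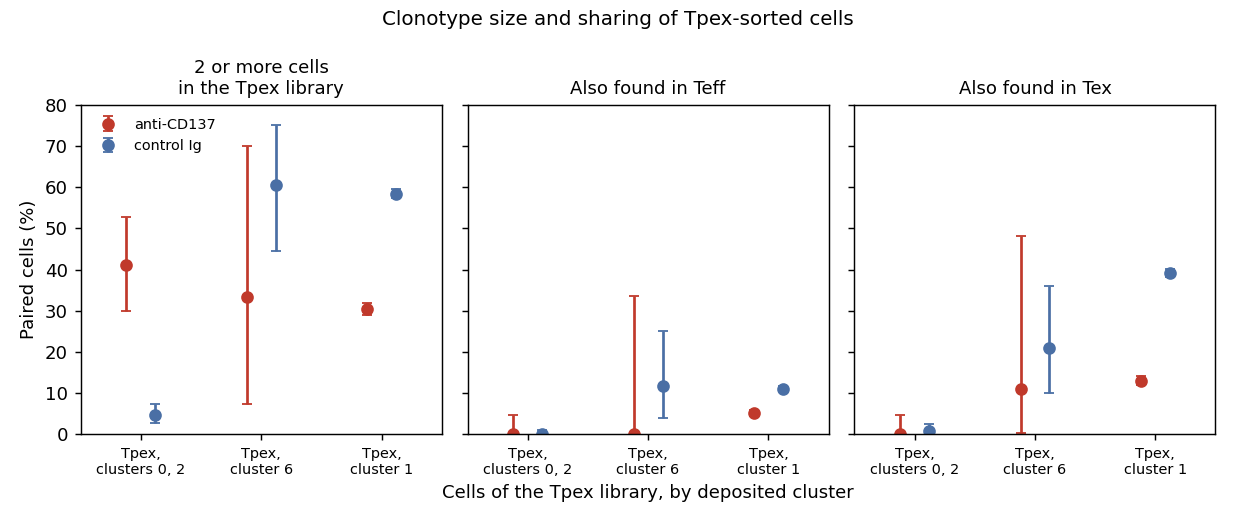
Percent of paired Tpex-sorted cells (vertical axis) whose clonotype had 2 or more cells in the Tpex library (left), was found in the Teff library (middle) or in the Tex library (right) of the same treatment, for cells of clusters 0 and 2, cluster 6 and cluster 1. Anti-CD137 is red and left of control Ig in blue, and bars are exact 95% binomial intervals. Control cells of cluster 6 lie near cluster 1 for expansion (60.5% and 58.4%) and well above clusters 0 and 2 (4.62%).

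Few of these receptors were found among effector-sorted cells. After anti-CD137, 0 of 87 cells shared both chains with a Teff cell of the same treatment, which allows a share of up to 3.45%, against 189 of 3699 in cluster 1 (5.11%, interval 4.42 to 5.87). In controls 5 of 389 did (1.29%, 0.419 to 2.97), against 977 of 8810 in cluster 1 (11.1%, 10.4 to 11.8). The differences from cluster 1 were -5.11 points (-5.87 to -0.90) after anti-CD137 and -9.80 points (-10.9 to -8.00) in controls. The control figure for cluster 1 rested mainly on receptor C, which made up 769 of the 977 cells. Without that clonotype the shares were 3 of 387 in the group (0.775%) and 208 of 8041 in cluster 1 (2.59%), a difference of -1.81 points (-2.53 to -0.30). Without the largest anti-CD137 clonotype cluster 1 had 144 of 3654 (3.94%), and the difference of -3.94 points had an interval (-4.62 to 0.25) that included 0.

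The 5 control cells that did share a receptor with Teff cells all lay in cluster 6. They belonged to 3 clonotypes, and the 4 Teff cells of these clonotypes were in cluster 6 as well. In cluster 6 the share was 5 of 43 (11.6%, interval 3.89 to 25.1), against 0 of 346 in clusters 0 and 2, which allows a share of up to 0.867%, a difference of 11.6 points (3.81 to 25.1). All 3 clonotypes were also found in Tex cells. Receptor C, the largest, had 2 cells in cluster 6 among 869 Tpex cells, 769 of which lay in cluster 1, with 2 Teff cells and 762 Tex cells. Receptor B had 2 cluster 6 cells among 10 Tpex cells, with 1 Teff and 1 Tex cell. Receptor D had 1 cluster 6 cell among 4 Tpex cells, with 1 Teff and 4 Tex cells.

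Sharing with exhausted cells was also lower than in cluster 1. After anti-CD137, 1 of 87 cells had a receptor found in the Tex library (1.15%, interval 0.0291 to 6.24), against 13.1% (12.0 to 14.2) of cluster 1. In controls 12 of 389 did (3.08%, 1.60 to 5.33), against 39.2% (38.2 to 40.2) of cluster 1. The 12 control cells held 9 clonotypes, and 9 of them lay in cluster 6, which gave 9 of 43 cells there (20.9%, 10.0 to 36.0) and 3 of 346 in clusters 0 and 2 (0.867%, 0.179 to 2.51). Cluster 6 cells were still below cluster 1, by -18.3 points (-29.2 to -3.14). Without receptor C the share in cluster 6 was 7 of 41 (17.1%), and the difference from cluster 1 was -16.3 points (-26.3 to -1.31). The Tex cells of the 9 clonotypes numbered 1161, with 1017 in cluster 3 and 122 in cluster 4. Receptor C alone had 762 of them. In Teff-sorted cells too, sharing with Tex lay mainly in cluster 6. In controls 30 of 361 paired Teff cells of cluster 6 shared (8.31%). In clusters 0 and 2 it was 0 of 7744 and 0 of 7888, which allow up to 0.0387% and 0.0380%. After anti-CD137 the Teff shares were 13.0% in cluster 6, 0.0719% in cluster 2 and 0 of 8109 in cluster 0, which allows up to 0.0370%.

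The background for these counts came from libraries of other mice. No paired cell of the group shared both chains with a Teff, Tpex or Tex cell of the opposite treatment, in 0 of 87 anti-CD137 cells, which allows a share of up to 3.45%, and 0 of 389 control cells, which allows up to 0.771%. The TRB chain alone was less specific. By TRB alone 4 of 116 anti-CD137 cells were found in the Teff library of their own treatment and 3 in that of the other. In controls the numbers were 21 of 459 in their own and 14 in the other, so over the whole group these counts with Teff were close to background. In control cluster 6 they were 10 of 47 with its own Teff library and 1 with the other, and with Tex the control group had 15 of 459 in its own library and 0 in the other, which allows a share of up to 0.654%. In the group, 7 of 169 barcodes after anti-CD137 and 18 of 515 in controls also occurred in the Teff library of the same treatment, and none of these carried the same pair of chains or the same TRB there. The Teff library of the opposite treatment shared 7 barcodes with the anti-CD137 cells and 15 with the control cells.

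The most frequent clonotype of the group was receptor A, with 4 control cells, all in cluster 6. It had 8 Tpex cells in all, with 3 in cluster 1 and 1 in cluster 3, and none in the Teff or Tex library. The TRA chain it shares with receptor B was found in 18 of 10041 paired control Tpex cells, joined to 2 TRB chains, with 6 of the cells in cluster 6 and 11 in cluster 1. The same chain was in 1 control Teff cell, which lay in cluster 6, and 1 control Tex cell. It was in 0 of 4471 paired anti-CD137 Tpex cells, 0 of 20234 Teff cells and 0 of 4717 Tex cells. Of the other control clonotypes, 10 had 2 cells in the group and 365 had 1. Receptors B and C were among those 10, as were 2 others with more than 10 Tpex cells. Those 2 used TRBV12-2+TRBV13-2, named as 1 joined segment, with TRAV16 (2 of 31 Tpex cells), and TRBV12-1 with TRAV3N-3 (2 of 14).

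After anti-CD137 the largest clonotypes were pairs of cells. Of its 76 clonotypes, 11 had 2 cells in the group and 65 had 1. Among the 11, the 5 described here are the ones with most Tpex cells, ties being taken in the order of their CDR3s. Their cells in the group all lay in cluster 0, unlike those of some other tied clonotypes, and none of the 5 was found in Teff or Tex cells. Receptor F and the clonotype of TRBV1 with TRAV7N-5 had a further Tpex cell in cluster 1. Receptor E and the clonotypes of TRBV19 with TRAV12D-3 and TRBV3 with TRAV8D-1 had no other Tpex cell. Of 345 clonotypes with exactly 2 cells in the anti-CD137 Tpex library, 9 had both cells in clusters 0, 2 and 6, 9 had 1 cell there and 327 had none. In controls the numbers were 4, 7 and 498 of 509. Sisters only in clusters 0, 2 and 6 were found for 18 of the 35 expanded anti-CD137 cells and 8 of the 42 expanded control cells.

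Both cells of such a pair were much alike. In the 9 anti-CD137 pairs the ribosomal percent differed by a median of 0.783 points (lowest 0.0173, highest 2.67), against 5.27 points over all pairs of paired anti-CD137 cells of the group. The larger UMI count was a median of 1.10 times the smaller (1.05 to 1.34), against 1.39 times over all pairs. Of the 9 pairs, 8 had both cells in 1 cluster, whereas all pairs of cells also cross clusters 0, 2 and 6, whose ribosomal medians differed. The part of the cluster in this contrast was not tested. In the 4 control pairs the ribosomal percent differed by 2.07 points (0.884 to 3.83), against 6.06 over all pairs, and the UMI ratio was 1.19. In cluster 1 the median ribosomal difference was 1.28 points in 259 anti-CD137 pairs, against 3.39 over all pairs of cells, and 4.09 points in 434 control pairs, against 4.45. These baselines lie within 1 cluster, so they are unlike those of the group.

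The TRBV26 and TRAV9-4 pair, in cluster 6 after anti-CD137, had 3965 and 3522 UMIs and 20.4% and 20.8% ribosomal transcripts. The 2 cells of receptor E had 1646 and 1543 UMIs and 37.0% and 35.2%. The TRBV3 and TRAV8D-1 pair had 1895 and 1758 UMIs and 27.2% in both cells. The 9 anti-CD137 pairs lay between 20.4% and 37.0%. In controls the TRBV29 and TRAV16 pair, in cluster 0, had 5162 and 5018 UMIs and 33.3% and 29.5%. The barcodes of a pair differed at 9 or more bases in both treatments, and whether both barcodes of a pair came from separate cells was not tested. With each such pair counted as 1 cell, a setting added after the data were seen, the expanded share was 21.8% (interval 13.2 to 32.6) after anti-CD137 and 8.83% (6.19 to 12.1) in controls.

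**Figure D4:**
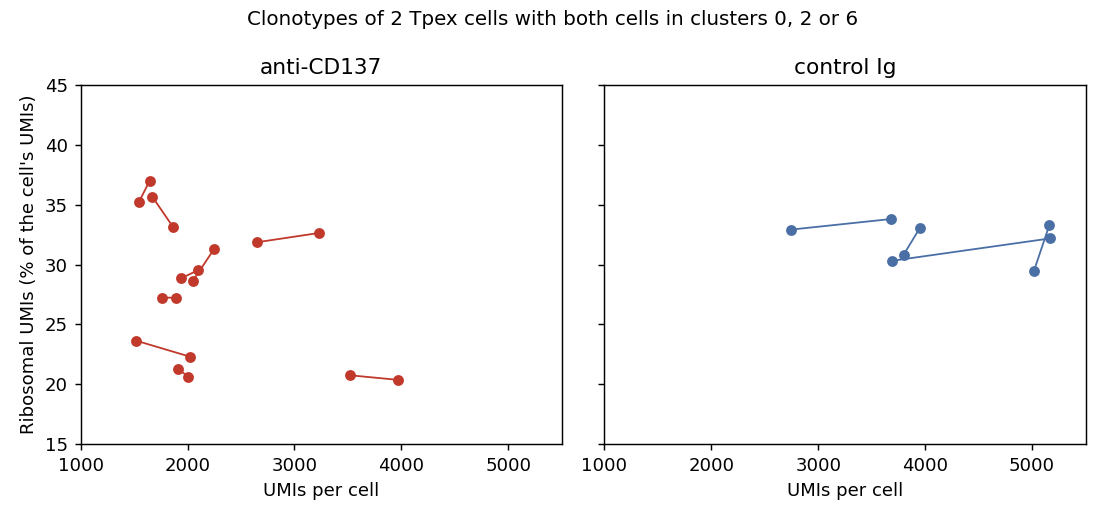
Ribosomal percent (vertical axis) and UMIs per cell (horizontal axis) of both cells of each clonotype with exactly 2 Tpex cells, both in clusters 0, 2 or 6, joined by a line, for anti-CD137 (left, 9 pairs) and control Ig (right, 4 pairs). The anti-CD137 pairs differ by at most 2.67 points, while the pairs themselves lie between 20.4% and 37.0%.

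In controls the V segments of the largest clones took far smaller shares of the group than of cluster 1. They were picked for their use by these clones, such as receptor C, with 769 of its 869 Tpex cells in cluster 1. The gaps by cell are therefore a description. TRBV5 was used by 18 of 389 cells (4.63%, interval 2.77 to 7.21), against 14.5% of cluster 1 cells and 3.97% of Teff cells. TRBV2, the segment of receptor C, was used by 2.57% (1.24 to 4.68), against 10.6% of cluster 1 and 2.35% of Teff cells. Counted once per clonotype the shares lay closer, with TRBV5 in 4.79% of clonotypes of the group and 3.69% of those in cluster 1. TRBV2 was in 2.39% of clonotypes of the group and 2.44% of those in cluster 1. TRAV12-3 was used by 0.771% of control cells of the group and 9.32% of cluster 1 cells, and it was in 0.798% of the clonotypes of the group and 1.19% of those in cluster 1.

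The most used TRB segments of the control cells were the joined TRBV12-2+TRBV13-2 (9.77%), TRBV16 (9.0%), TRBV12-1 (8.48%), TRBV19 (7.71%) and TRBV13-3 (7.20%). In control Teff cells they were used by 8.92%, 7.97%, 6.97%, 5.90% and 6.38%, all within the intervals of the group. In control cluster 1 cells they were used by 8.67%, 6.12%, 5.52%, 5.69% and 3.86%, of which TRBV16, TRBV12-1 and TRBV13-3 lay below the intervals of the group (lower bounds 6.35%, 5.91% and 4.84%). Counted once per clonotype those 3 were in 9.04%, 7.98% and 7.45% of the group. In cluster 1 they were in 7.19%, 7.27% and 5.48%, all within the clonotype intervals of the group (lower bounds 6.34%, 5.45% and 5.01%). These segments were picked as the most used of the control group, so the gaps are a description. After anti-CD137, TRBV5 was the most used, in 10 of 87 cells (11.5%, interval 5.65 to 20.1) and 9 of 76 clonotypes, against 3.76% (3.17 to 4.42) of cluster 1 cells and 3.79% of Teff cells. TRBV5 was picked as the most used segment of the group, so this gap is a description. The next most used were the joined TRBV12-2+TRBV13-2 and TRBV29 (9.20% each), then TRBV1 and the separately named TRBV12-2 (6.90% each). In anti-CD137 cluster 1 cells they were used by 8.22%, 10.7%, 6.84% and 7.49%, all within the intervals of the group. Anti-CD137 Teff cells had 8.63%, 5.55%, 5.85% and 7.36%, also within them.

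Among TRA segments TRAV13-1 was used by 7 of 87 anti-CD137 cells (8.05%, 3.30 to 15.9), against 4.0% of cluster 1. TRAV12-2 and TRAV16N were used by 5.75% each and TRAV12D-3 and TRAV3N-3 by 4.60% each, against 3.62% to 5.46% in cluster 1. In controls TRAV3N-3 was the most used, in 23 of 389 cells (5.91%, 3.78 to 8.74), against 2.71% of cluster 1 cells and 4.01% of Teff cells. Counted once per clonotype it was in 5.85% of the group and 3.71% of cluster 1. TRAV16N, TRAV16, TRAV12D-3 and TRAV13-1 followed with 3.34% to 5.66% of control cells, against 2.28% to 4.79% of cluster 1. All of these TRA segments were picked as the most used of the group, so their gaps are a description.

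Invariant receptors were not seen. The TRAV11 or TRAV11D with TRAJ18 chain of natural killer T cells and the TRAV1 with TRAJ33 chain of mucosal-associated invariant T cells were in 0 of 87 anti-CD137 cells, which allows a share of up to 3.45%, and in 0 of 389 control cells, which allows up to 0.771%. Among Teff cells of clusters 0, 2 and 6 the first was in 15 of 18705 after anti-CD137 and 4 of 15993 in controls. The TRB CDR3 had a mean of 42.2 ± 4.76 bases (SD over 87 cells) after anti-CD137 and 41.8 ± 4.26 (SD over 389 cells) in controls, of which 10.4 bases in both matched neither germline end. Cluster 1 cells had 10.8 such bases after anti-CD137 and 10.2 in controls. A second TRB chain was found in 10.3% of the anti-CD137 group (4.84 to 18.7) and 7.97% of the control group (5.48 to 11.1). In cluster 1 it was found in 24.1% after anti-CD137 and 7.15% in controls, and in Teff cells of clusters 0, 2 and 6 in 17.7% after anti-CD137 and 15.9% in controls. No source used here says whether doublets were removed, and their part in the group was not tested.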

How the data were processed

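The authors deposited a table of cells with their UMI count, number of genes (a count), ribosomal and mitochondrial percent of a cell's UMIs, S and G2M score, phase call and cluster, per the file headers, and a table of receptor contigs with a UMI count each. Cell Ranger 3.0.2, Seurat 4.0.0 and mm10 are named in the submitters' processing notes, and the filters on cells, the treatment of doublets and the genes behind the clusters are not given in the sources used here. Libraries were named by the sample column, with 0 columns of unmapped samples. Library and barcode together linked receptors to cells. The TRA and the TRB with the most UMIs made the clonotype, and 2 or more paired Tpex cells made it expanded. CDR3s were split by exact match to germline V and J ends, without D segments.

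No test was possible with 1 library per group. Shares have exact Clopper-Pearson 95% intervals. Differences have intervals by the Newcombe square-and-add step, built here from these exact limits. A share of 0 stands beside its upper limit of 3 counts. All cover counting error only. The exact interval of a share and the split of the CDR3s were tried on simulated data. The intervals of differences and the lookup of shared receptors were not. Segments named were the 5 TRBV and 5 TRAV used by most paired cells per treatment, with those of the largest control clones. Clonotypes named were the 5 with most cells of the group per treatment, ties going to those with more Tpex cells and then to the order of the CDR3, and those found in both Teff and Tex. The cells and lists were chosen with earlier results of these data known. Alternatives varied the clusters, the clonotype definition, the size cut, the score cut and the depth. Computations used Python 3.11.15, numpy 2.4.6, pandas 2.3.3, scipy 1.17.1 and matplotlib 3.10.9.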

Additional observations from a re-analysis of the deposited data

Results flagged for a closer look

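For 5 of the 11 measures compared, the cells of clusters 0, 2 and 6 lay on opposite sides of the Tpex cells of cluster 1 in the 2 treatments. Whether the treatments differ in these gaps was not tested, since each treatment has 1 Tpex library. The median UMI count of the group minus that of cluster 1 was 55 after anti-CD137 (1942 and 1887) and -367 in controls (4248 and 4615). The share of cells with a paired receptor was 18.1 points above cluster 1 after anti-CD137 and -2.76 points from it in controls, where the interval (-6.78 to 0.979) included 0. The share of paired cells with 2 TRB chains differed from cluster 1 by -13.8 points after anti-CD137 and by 0.818 points in controls. There the cluster 1 share of 7.15% lay within the interval of the group (5.48 to 11.1). For 2 TRA chains the gaps were -8.74 points after anti-CD137 and 1.70 points in controls, where the cluster 1 share of 10.6% lay within the interval of the group (9.24 to 16.0). The share of paired cells in clones of 2 or more differed by 9.79 points (interval -0.70 to 21.0) after anti-CD137 and by -47.6 points in controls. By TRB alone the anti-CD137 gap was negative, and no direction is read for it. For each of these shares the direction is thus unsettled in 1 treatment. The anti-CD137 Tpex library was the shallowest, and the part of its depth in these gaps was not tested.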

How the results depend on the processing

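Of 102 alternative values for 21 results, 65 stayed within the interval of the value reported, 35 moved outside it and 2 changed sign, where only differences can. No paired analysis was possible because each group holds 1 library, and no replicate could be left out. For the share of Tpex cells in the group, paired cells alone gave 1.95% after anti-CD137 and a difference of -1.93 points. A mean over the UMI bins of both libraries gave 1.04% after anti-CD137 and -3.25 points. Counting each clonotype once per cluster gave 2.11% after anti-CD137, 6.69% in controls and -4.58 points. Clusters 0 and 2 alone gave 3.57% in controls, a control ribosomal median of 31.1%, a control expanded share of 4.62%, control sharing of 0% with Teff and 0.867% with Tex, and anti-CD137 sharing of 0% with Tex. Cluster 6 alone, added after the data were seen, gave a control expanded share of 60.5% and sharing with Tex of 11.1% after anti-CD137 and 20.9% in controls. A score above 0.1 in place of the phase call gave 8.88% after anti-CD137 and 2.91% in controls. TRB alone gave 68.6% of cells with a receptor after anti-CD137 and 89.1% in controls, 59.5% expanded after anti-CD137 and 4.58% shared with Teff in controls. Clones of 3 or more gave 9.20% expanded after anti-CD137 and 6.94% in controls, and pairs counted as 1 cell, also added, 21.8% after anti-CD137. Clonotypes in place of cells gave 7.71% expanded in controls. Asking for 2 Tex cells gave 0% shared after anti-CD137 and 1.29% in controls. The causes of these shifts were not tested. The UMI bins within each treatment, added after the data were seen, moved no value out of its interval. The gaps between the group and cluster 1 were recomputed under settings added after the data were seen. The expanded gap after anti-CD137 changed sign by TRB alone (-9.53 points) and by TRB alone over cells with both chains (-3.99). By these 2 settings the anti-CD137 gap was -8.43 and -9.07 points for Teff and -24.6 and -21.0 for Tex. In controls, leaving out the largest clonotype gave -1.81 points for Teff and -30.8 for Tex, and counting pairs as 1 cell gave -42.2 for expansion. A count of 0 among 87 paired anti-CD137 cells allows a share of up to 3.45%, and among the 9 in cluster 6 up to 33.3%.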

Other observations

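Receptor barcodes that are outside the cell table gave a further count of these clonotypes. The receptor table held 7452 paired barcodes of the anti-CD137 Tpex library and 1218 of the control Tpex library that had no row in the cell table. Of the paired cells of clusters 0, 2 and 6, 9 of 87 after anti-CD137 (10.3%, interval 4.84 to 18.7) had their receptor at such a barcode, against 20.9% of cluster 1. In controls 14 of 389 did (3.60%, 1.98 to 5.96), against 34.8% of cluster 1. Of the 14 control cells, 10 lay in cluster 6 (10 of 43, 23.3%, 11.8 to 38.6) and 4 in clusters 0 and 2 (4 of 346, 1.16%, 0.316 to 2.93).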
